A study of Mus musculus with 6 samples.

Results

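The 10 genes described here encode the enzymes that make serine and pass its carbon to folate: Phgdh, Psat1 and Psph for serine synthesis, Shmt1, Mthfd1 and Aldh1l1 for the cytosolic folate reactions, and Shmt2, Mthfd2, Mthfd2l and Mthfd1l for the mitochondrial ones. They were taken by name, as enzymes of these reactions, from 22942 genes in the deposited tables, and each gene is given by its RefSeq transcript with the highest mean RPKM (reads scaled to transcript length and to library size). All 10 had a value in every library and passed the filter on low values. The data were 6 messenger RNA libraries from C3H-10T1/2, an established mouse mesenchymal line able to form adipocytes in a dish. In 3 of them the cells had received 4 uM of 611 (Cpd A), which inhibits LSD1, a demethylase of histones, and in the other 3 only the solvent DMSO. The 3 libraries per group are described as biological triplicates, all of 1 cell line, and p-values measure the spread between them. Library totals, estimated from the RPKM values, were 4.08e+07 to 4.12e+07 reads or read pairs with 611 and 3.88e+07 to 3.99e+07 with DMSO. Both groups were grown to confluence and kept for 6 days under brown adipocyte induction, with isobutylmethylxanthine at 0.5 mM, indomethacin at 125 uM and dexamethasone at 1 uM in the first 72 h only, and insulin at 20 nM, the thyroid hormone T3 at 1 nM and the PPARG agonist rosiglitazone at 1 uM throughout. The labels place the start of 611 or DMSO both at seeding and 12 h after it. They place induction 48 h after treatment and give serum at 10%, in both groups.

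Cells draw serine from the glycolytic intermediate phosphoglycerate, which PHGDH oxidises, PSAT1 converts by transamination and PSPH dephosphorylates. Serine hydroxymethyltransferase, SHMT1 in the cytosol and SHMT2 in mitochondria, then splits serine into glycine and a carbon unit carried by tetrahydrofolate. In mitochondria MTHFD2 or MTHFD2L oxidises that unit and MTHFD1L releases it as formate, and in the cytosol MTHFD1 binds the formate to folate again for the synthesis of purines and thymidylate, while ALDH1L1 burns it off as carbon dioxide. The pathway is best known from dividing cells, which need nucleotides, and as a target of the stress-induced transcription factor ATF4.

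The 250 bases before the start of 3 of these genes are shown. Of the genes whose difference between 611 and DMSO kept direction and call in each of the 15 alternative settings run, Phgdh and Mthfd1l had the largest rises and Mthfd2 the largest fall on the log2(RPKM + 1) scale. The sequences are RefSeq's for build GRCm38.p6, read 5′ to 3′ on the strand of the gene, at chr3:98339970-98340219 on the minus strand for Phgdh, chr10:3972825-3973074 on the plus strand for Mthfd1l and chr6:83317605-83317854 on the minus strand for Mthfd2. Capitals mark the CCAAT box (CCAAT or ATTGG) and the core of the cAMP response element (TGACGT or ACGTCA).
Phgdh: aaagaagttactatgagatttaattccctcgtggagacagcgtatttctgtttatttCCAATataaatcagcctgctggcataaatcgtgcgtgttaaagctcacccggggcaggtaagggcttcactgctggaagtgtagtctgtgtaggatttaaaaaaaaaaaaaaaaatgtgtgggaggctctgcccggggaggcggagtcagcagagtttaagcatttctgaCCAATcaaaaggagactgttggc
Mthfd1l: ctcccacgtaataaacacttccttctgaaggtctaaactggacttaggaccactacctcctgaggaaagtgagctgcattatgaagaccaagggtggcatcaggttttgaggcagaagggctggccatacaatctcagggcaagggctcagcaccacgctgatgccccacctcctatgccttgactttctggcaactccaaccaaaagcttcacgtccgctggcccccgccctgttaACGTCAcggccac
Mthfd2: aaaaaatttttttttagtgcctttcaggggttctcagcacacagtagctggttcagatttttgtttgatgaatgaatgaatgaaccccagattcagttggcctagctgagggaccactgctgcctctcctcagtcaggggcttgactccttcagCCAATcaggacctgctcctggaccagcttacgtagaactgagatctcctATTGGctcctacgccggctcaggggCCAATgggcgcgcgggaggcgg
The Phgdh window held 2 CCAAT boxes, the Mthfd2 window 3, and the Mthfd1l window 0 but 1 cAMP element core. A CCAAT box on either strand stood in 7 of the 11 windows of the 10 genes (Psat1 has 2 windows) and in 33.8% of 32851 windows of the same length over the genome. The element bound by ATF4 with C/EBP proteins, searched as TGATGNAA or TTNCATCA, stood in 0 of the 11 windows and in 3.45% of all, and the E-box CACGTG in 0 and in 6.02%. The cAMP element core stood in 1 of the 11 windows and in 6.47% of all. These are matches of letters in a short window and not sites shown to be bound.

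With 611, 4 of the 10 genes were higher, 3 were lower and 3 did not pass the test. Higher were Phgdh, Mthfd1, Shmt2 and Mthfd1l, and lower were Psph, Aldh1l1 and Mthfd2 (limma on log2(RPKM + 1), Benjamini-Hochberg adjusted p below 0.05 over 13829 genes). Over all genes tested 41.6% were called higher and 17.7% lower, 59.4% in all, so a share of 7 in 10 called lies near the background. The median log2 fold change of the 10 was 0.09, against 0.10 for all genes tested. Scaling the libraries by the median of ratios, which sets the typical gene to no change, moved the median of all genes by 0.11. After this scaling the median of the 10 was -0.039, against -0.003 for all genes tested. Of the genes called, 49.9% were higher after it, against 70.1% without it. With this scaling 2 of the 10 genes, Phgdh and Mthfd1l, were called higher and 3, Psph, Aldh1l1 and Mthfd2, were called lower. The calls of Mthfd1 and Shmt2 ended. In bulk RNA fewer cells of a type and less RNA per cell cannot be told apart, here and in all that follows.

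**Figure D1:**
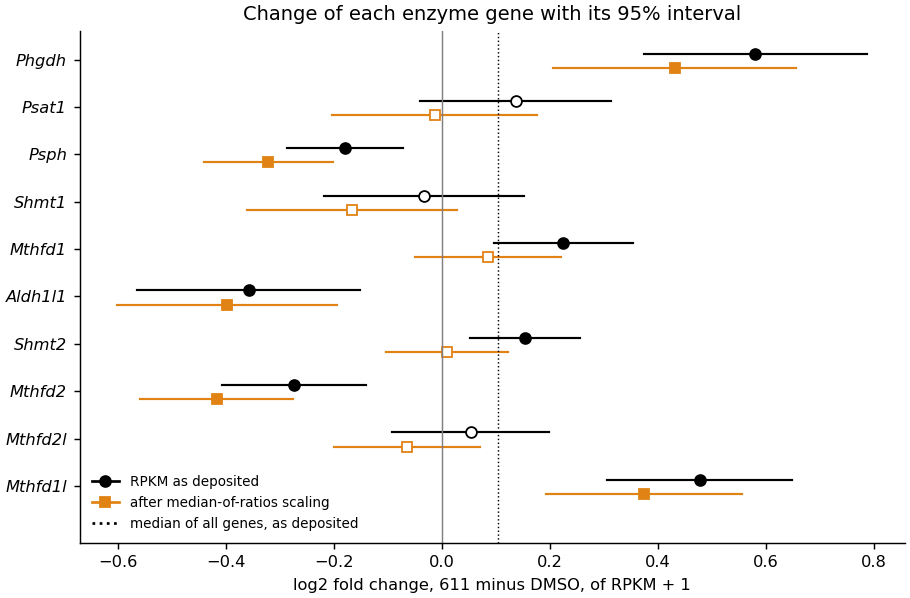
Log2 fold change of each enzyme gene, 611 minus DMSO, on the log2(RPKM + 1) scale (x axis), with the genes down the page by role. Circles are values from RPKM as deposited and squares values after median-of-ratios scaling, lines are 95% intervals from limma, filled marks passed adjusted p 0.05, and the dotted line is the median of all genes at 0.10. Phgdh and Mthfd1l lie right of 0, and Psph, Aldh1l1 and Mthfd2 left of it, under both.

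Of the serine synthesis enzymes, Phgdh rose, Psph fell by a smaller amount, and Psat1 did not pass the test. Phgdh, the first step, had 63.8, 54.0 and 60.3 RPKM in 611 replicates 1, 2 and 3, against 43.9, 34.2 and 40.3 RPKM in DMSO replicates 1, 2 and 3. Each 611 library lay above each DMSO library. The means were 59.4 ± 5.01 RPKM with 611 and 39.5 ± 4.90 RPKM with DMSO (SD, n = 3 each), 1.504-fold higher (log2 fold change 0.58, 95% interval 0.37 to 0.79, limma adjusted p = 5.8e-04), and after scaling the log2 fold change was 0.43 (limma adjusted p = 0.0053). The Phgdh transcript resembles 11 other annotated genes. Of these, 7, all processed pseudogenes, do so at 95.3% to 98.7% identity over 1594 to 1608 bases, and the others over shorter stretches. Of the 7, 0 have a value in the tables, and the sources used here do not say how reads were shared among such copies, so the Phgdh level is uncertain to that extent.

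Psat1, the second step, had the highest level of the 10 genes in both groups. It stood at 72.5, 61.6 and 73.8 RPKM with 611, against 65.8, 57.3 and 65.6 RPKM with DMSO, and the groups overlapped. The log2 fold change was 0.14, with a 95% interval of -0.04 to 0.31 (limma adjusted p = 0.161). With the replicate number as a block the same difference passed (limma adjusted p = 0.0039), and after scaling it was -0.01 (limma adjusted p = 0.902). Its other transcript in the tables gave 64.7 ± 6.19 RPKM with 611 and 58.7 ± 4.49 RPKM with DMSO (SD, n = 3 each). Psph, the last step, had 12.4, 12.1 and 11.9 RPKM with 611, against 14.5, 13.2 and 13.9 RPKM with DMSO. Its 611 libraries all lay below the DMSO libraries, 1.14-fold lower by the means (log2 fold change -0.18, 95% interval -0.29 to -0.07, limma adjusted p = 0.0096). Psph exons overlap those of Cct6a, a chaperonin subunit gene on the other strand with 59.2 ± 0.689 RPKM in 611 libraries and 59.4 ± 2.34 RPKM in DMSO libraries (SD, n = 3 each). The Psph transcript used, annotated at 1733 bases, shares 452 bases with a Cct6a transcript. The sources used here do not state whether counting used strand, so reads of the shared stretch cannot be told apart, and the Psph difference is uncertain to that extent.

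Summed over the 3 genes, serine synthesis transcripts reached 141 ± 11.5 RPKM with 611 and 116 ± 10.2 RPKM with DMSO (SD, n = 3 each), and most of that difference lay in Phgdh. The ratio of Phgdh to Psat1 was 0.881, 0.876 and 0.818 in 611 libraries, against 0.668, 0.598 and 0.615 in DMSO libraries. That pair was chosen after the values were seen, and its ratio is given as a description. Phgdh thus stood closer to Psat1 with 611, where the libraries of the 2 genes overlapped, than with DMSO, where they did not.

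**Figure D2:**
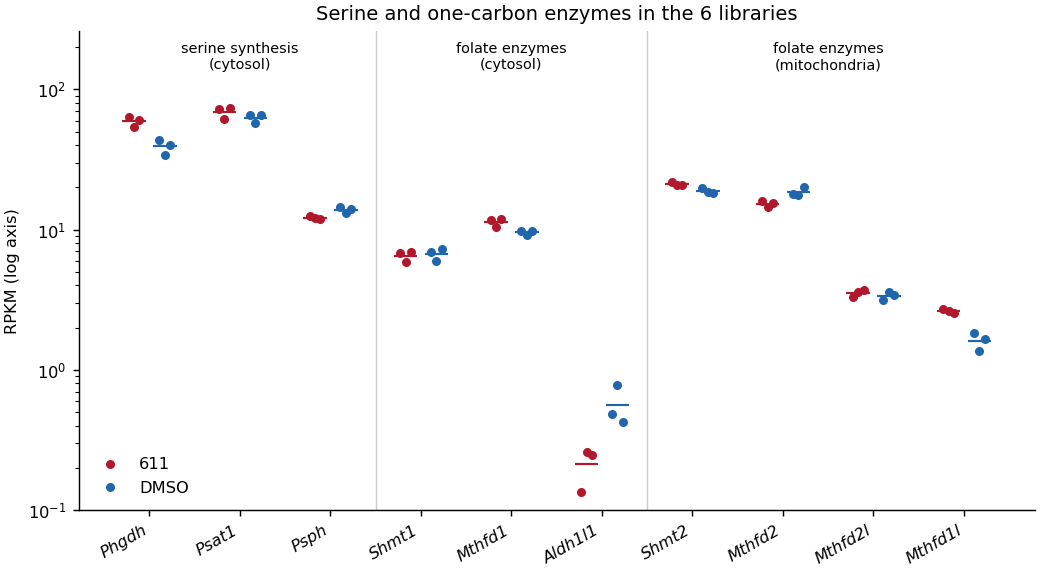
RPKM of the 10 enzyme genes on a log axis, grouped by role and compartment, with each dot 1 library (611 on the left of each pair, DMSO on the right, replicates 1 to 3 from left to right) and each bar the mean. Psat1 and Phgdh stand highest, Aldh1l1 lowest, and the groups overlap for Psat1, Shmt1 and Mthfd2l.

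Of the cytosolic folate enzymes, Mthfd1 rose slightly, Aldh1l1 fell and Shmt1 did not pass the test. Mthfd1, the trifunctional enzyme that recharges folate with formate, had 11.7, 10.5 and 11.9 RPKM with 611, against 9.73, 9.22 and 9.72 RPKM with DMSO. The groups did not overlap, and the means differed 1.19-fold (log2 fold change 0.22, 95% interval 0.10 to 0.35, limma adjusted p = 0.0080). After scaling the difference was 0.09, with a 95% interval of -0.05 to 0.22 (limma adjusted p = 0.246), so a rise relative to the typical gene was not shown. Shmt1, which splits serine in the cytosol, had 6.85, 5.86 and 6.93 RPKM with 611, against 6.93, 6.00 and 7.24 RPKM with DMSO. In both groups replicate 2 was the lowest, the groups overlapped, and the log2 fold change of -0.03 had a 95% interval of -0.22 to 0.15 (limma adjusted p = 0.745). Exons of Mthfd1 overlap the noncoding gene Gm47525 and those of Shmt1 overlap Smcr8, each on the opposite strand, and Smcr8 had 10.4 ± 0.212 RPKM with 611 and 10.4 ± 0.289 RPKM with DMSO (SD, n = 3 each).

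Aldh1l1, the dehydrogenase that ends the pathway in carbon dioxide, was the lowest of the 10 genes and showed the largest ratio between groups. It had 0.135, 0.260 and 0.246 RPKM with 611, about 17, 33 and 31 reads, against 0.484, 0.775 and 0.423 RPKM with DMSO, about 58, 95 and 52 reads. Each 611 library lay below each DMSO library, 2.63-fold lower by the means. On the log2(RPKM + 1) scale, which understates changes of low genes, the difference was -0.36 (95% interval -0.56 to -0.15, limma adjusted p = 0.0081), and with 0.1 added in place of 1 it was -1.06 (limma adjusted p = 0.0065). Counting error alone was 17.4% to 24.3% of the value in 611 libraries and 10.3% to 13.9% in DMSO libraries. Annotated exons of Aldh1l1 overlap those of Gm15756 on the opposite strand and Gm45901 on the same strand. The Aldh1l1 transcript used shares 110 bases with Gm15756, where reads cannot be told apart in these values. No such stretch shared with Gm45901 was found.

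Of the mitochondrial enzymes, Mthfd1l and Shmt2 rose, Mthfd2 fell and Mthfd2l did not pass the test. Shmt2, which splits serine in mitochondria, had 21.9, 20.8 and 21.0 RPKM with 611, against 19.9, 18.7 and 18.3 RPKM with DMSO. The 611 libraries lay above the DMSO libraries by a narrow gap, 1.12-fold by the means (log2 fold change 0.15, 95% interval 0.05 to 0.26, limma adjusted p = 0.0157). The Shmt2 call ended without 611 replicate 1 (limma adjusted p = 0.0532), without DMSO replicate 3 (limma adjusted p = 0.0576), without both libraries numbered 2 (limma adjusted p = 0.0578) and after scaling, where the log2 fold change was 0.01 (95% interval -0.10 to 0.12, limma adjusted p = 0.884). Exons of Shmt2 overlap those of Ndufa4l2 on the opposite strand, which averaged 0.0679 ± 0.0588 RPKM with 611 and 0.0348 ± 0.0602 RPKM with DMSO (SD, n = 3 each).

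Mthfd2, the mitochondrial dehydrogenase and cyclohydrolase whose 3 CCAAT boxes are shown above, had 15.9, 14.4 and 15.5 RPKM with 611, against 18.1, 17.8 and 20.2 RPKM with DMSO. Each 611 library was lower than each DMSO library, 1.22-fold by the means (log2 fold change -0.27, 95% interval -0.41 to -0.14, limma adjusted p = 0.0034), and after scaling the log2 fold change was -0.42 (limma adjusted p = 4.6e-04). Mthfd2l, its paralogue, had 3.32, 3.59 and 3.73 RPKM with 611, against 3.18, 3.57 and 3.40 RPKM with DMSO, and the groups overlapped (log2 fold change 0.05, 95% interval -0.09 to 0.20, limma adjusted p = 0.498). The Mthfd2l transcript resembles a processed pseudogene at 98.3% identity over 291 bases, and how reads of that stretch were shared is not known. Mthfd1l, the synthetase that releases formate, had 2.73, 2.64 and 2.54 RPKM with 611, against 1.82, 1.37 and 1.67 RPKM with DMSO. The groups were well apart, 1.63-fold by the means (log2 fold change 0.48, 95% interval 0.31 to 0.65, limma adjusted p = 6.2e-04), and 0.37 after scaling (limma adjusted p = 0.0035). The other 2 Mthfd1l transcripts in the tables gave 2.58 ± 0.0879 and 2.14 ± 0.0823 RPKM with 611, against 1.57 ± 0.216 and 1.31 ± 0.149 RPKM with DMSO (SD, n = 3 each). All 3 had a higher mean with 611, and how many reads they share is not known.

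Summed over the 4 mitochondrial genes the level was 42.7 ± 1.23 RPKM with 611 and 42.6 ± 1.14 RPKM with DMSO (SD, n = 3 each). In RPKM as deposited, their opposite differences thus cancelled in the sum. The cytosolic folate genes summed to 18.1 ± 1.33 RPKM with 611 and 16.8 ± 0.744 RPKM with DMSO (SD, n = 3 each). These sums and that of serine synthesis are not scaled. Scaling divides 611 libraries by 1.04 to 1.07 and DMSO libraries by 0.941 to 0.963, which lowers every 611 sum relative to DMSO. By calls, the cytosolic arm, serine synthesis included, had 2 genes higher, 2 lower and 2 not called. The mitochondrial arm had 2 higher, 1 lower and 1 not called. Of all genes tested 41.6% were called higher and 17.7% lower. After scaling the cytosolic arm had 1 higher and 2 lower, and the mitochondrial arm 1 higher and 1 lower. Neither arm moved in 1 direction.

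Ratios within a library set a mitochondrial enzyme against its cytosolic counterpart and do not depend on how libraries are scaled. Mthfd2 to Mthfd1 was 1.36, 1.38 and 1.30 in 611 libraries, against 1.86, 1.93 and 2.07 in DMSO libraries. The groups were apart by -0.54 on the log2 scale, 1.45-fold lower with 611, at p = 0.1 in a two-sided exact permutation test, the smallest that 3 against 3 libraries can give. Mthfd1l to Mthfd1 went the other way, at 0.234, 0.252 and 0.213 in 611 libraries against 0.187, 0.148 and 0.172 in DMSO libraries, 0.47 higher on the log2 scale (two-sided exact permutation p = 0.1, again the smallest possible). Shmt2 to Shmt1 was 3.20, 3.55 and 3.03 in 611 libraries against 2.87, 3.11 and 2.53 in DMSO libraries, 0.20 higher on the log2 scale (two-sided exact permutation p = 0.2). For that pair the groups overlapped, though in each of the 3 replicate numbers the 611 library had the higher ratio.

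**Figure D3:**
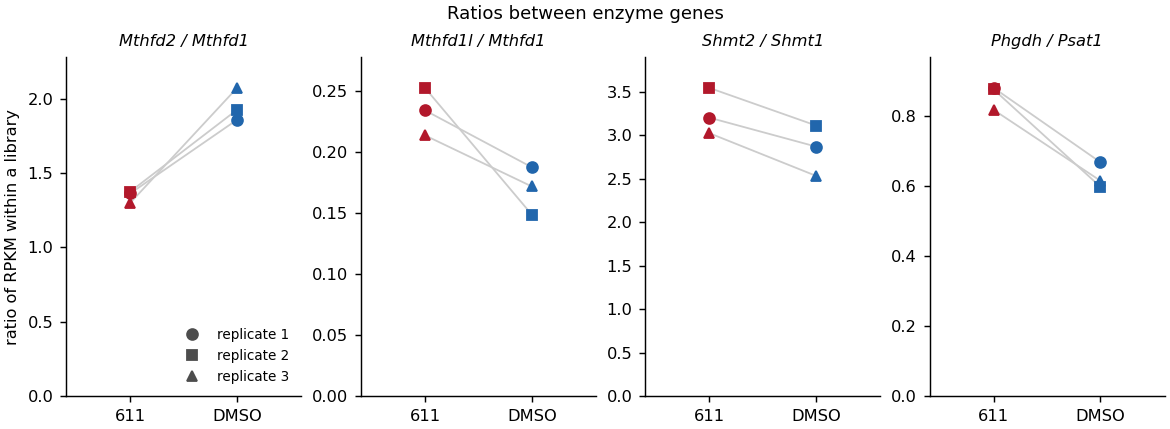
Ratio of RPKM of 2 enzyme genes within each library (y axes from 0), with 611 on the left and DMSO on the right of each panel, the marker shape giving the replicate number and grey lines joining equal numbers. Mthfd2 to Mthfd1 is lower in the 611 libraries (1.30 to 1.38, against 1.86 to 2.07), and the other 3 ratios are higher in 611 than in DMSO for every replicate number.

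The order of the levels was the same in both groups. With 611 it ran Psat1, Phgdh, Shmt2, Mthfd2, Psph, Mthfd1, Shmt1, Mthfd2l, Mthfd1l and Aldh1l1, from 69.3 ± 6.71 RPKM down to 0.214 ± 0.0683 RPKM (SD, n = 3). With DMSO it ran from 62.9 ± 4.84 RPKM down to 0.561 ± 0.188 RPKM (SD, n = 3). What differed was which neighbours were separated. In 611 libraries Psat1 overlapped with Phgdh and Psph with Mthfd1, while in DMSO libraries Shmt2 overlapped with Mthfd2 and no other neighbours did.

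Replicate 2 stood apart from the other two replicates for several of the genes. Phgdh in replicate 2 was at 0.869 times the mean of replicates 1 and 3 with 611 and at 0.813 times with DMSO. Psat1 showed the same, at 0.842 and 0.872 times, and Shmt1 at 0.850 and 0.846 times. Aldh1l1 went the other way, at 1.36 times with 611 and 1.71 times with DMSO. Across all genes tested, libraries with the same number deviated together from their group means (correlations across genes, which are not independent, of 0.30, 0.30 and 0.18 for numbers 1, 2 and 3). With both libraries numbered 2 left out, an alternative chosen after seeing the data, 4 of the 10 genes were called higher and 3 lower, as with all 6 libraries, with Psat1 in (limma adjusted p = 0.0228) and Shmt2 out of the higher ones.

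**Figure D4:**
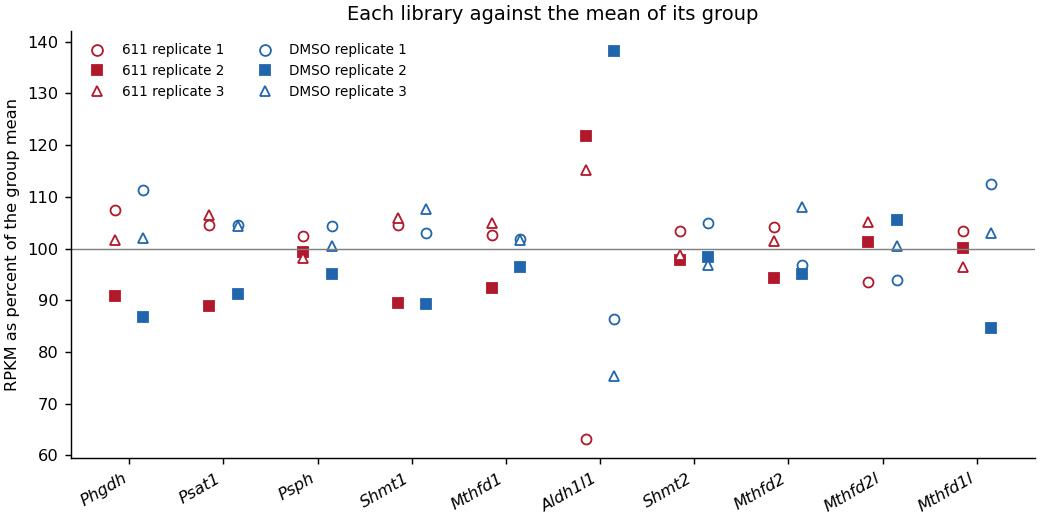
RPKM of each library as percent of its group's mean (y axis) for the 10 genes, 611 on the left and DMSO on the right of each pair, with filled squares for replicate 2 and open marks for replicates 1 and 3. Replicate 2 lies below 100% in both groups for Phgdh, Psat1 and Shmt1, and above it in both for Aldh1l1.

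The genes around the pathway, in 7 lists of 79 entries, were mixed as well. Of 72 tested, 23 were called higher (31.9%) and 20 lower (27.8%), against 41.6% and 17.7% of all genes. After scaling 16 were higher and 31 lower, against 3940 higher and 3961 lower of all genes. In the list of ATF4 and the genes of amino acid and integrated stress, 8 of 15 were lower and 3 higher, with a median log2 fold change of -0.23. Atf4 itself was at 92.6 ± 1.51 RPKM with 611 and 97.6 ± 2.51 RPKM with DMSO (SD, n = 3 each), which did not pass (limma adjusted p = 0.0998) but did with the replicate block (limma adjusted p = 0.0347) and after scaling (limma adjusted p = 0.0015). The largest falls of the list were those of Trib3, a pseudokinase induced by stress, at 4.15 ± 1.07 RPKM with 611 and 10.8 ± 2.53 RPKM with DMSO (SD, n = 3 each), of the hormone gene Fgf21, 2.02-fold lower, and of Nupr1, 1.66-fold lower. The cystine carrier gene Slc7a11 rose 1.89-fold, the proline synthesis gene Aldh18a1 rose 1.81-fold and the amino acid carrier gene Slc7a5 rose 1.46-fold. Of the 10 enzymes, Phgdh, Mthfd1, Shmt2 and Mthfd1l were called higher without scaling, and Psph, Aldh1l1 and Mthfd2 lower. A part of ATF4 in these differences was not tested.

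Among 10 genes that carry serine or glycine across membranes, 3 rose and 3 fell, and with the replicate block 5 rose. Of all genes tested 41.6% were called higher and 17.7% lower, the shares beside which the counts of this paragraph stand. Sfxn1, the mitochondrial serine carrier, fell 1.496-fold, to 15.5 ± 0.216 RPKM with 611, against 23.2 ± 0.444 RPKM with DMSO (SD, n = 3 each), while its relative Sfxn3 rose 2.37-fold, to 14.8 ± 0.759 RPKM with 611, against 6.22 ± 0.533 RPKM with DMSO (SD, n = 3 each). The neutral amino acid carrier genes Slc1a5 and Slc7a10 fell 1.46-fold and 2.25-fold, and Slc1a4 and Slc38a1 rose 1.39-fold and 7.09-fold. Slc38a1 was low in both groups, at 1.14 ± 0.0714 RPKM with 611 and 0.161 ± 0.0366 RPKM with DMSO (SD, n = 3 each). Among the other folate genes 5 of 13 rose and 2 fell, and after scaling 4 rose and 4 fell. Fpgs, which traps folate in the cell, rose 1.43-fold, and Tyms, which spends it on thymidylate, rose 1.24-fold to 22.6 ± 1.77 RPKM with 611, against 18.2 ± 0.430 RPKM with DMSO (SD, n = 3 each). Aldh1l2, the mitochondrial relative of Aldh1l1, rose 1.29-fold (limma adjusted p = 0.0118, and 0.108 after scaling).

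Glycine cleavage, the mitochondrial breakdown of glycine, had 2 of 3 tested genes lower and 0 higher: Dld, also a subunit of other dehydrogenases, fell 1.51-fold and Gcsh 1.26-fold. Gldc, its decarboxylase, was at 0.0238 ± 0.0261 RPKM with 611 and 0.0270 ± 0.0179 RPKM with DMSO (SD, n = 3 each) and was too low to test. Of 13 purine synthesis genes 6 rose and 1 fell, and after scaling 3 rose and 3 fell, and 2 fell when DMSO replicate 1 was left out. Of all genes tested 41.6% were called higher and 17.7% lower, so 6 of 13 higher lies near the background. The other counts of this paragraph stand beside the same shares. Prps2, which makes the ribose phosphate donor, rose 1.78-fold, Adss 1.40-fold and Impdh2 1.29-fold, while Impdh1 fell 1.88-fold to 23.3 ± 2.16 RPKM with 611, against 43.9 ± 1.78 RPKM with DMSO (SD, n = 3 each). In the methionine and transsulfuration list 2 of 7 rose and 3 fell, and after scaling 1 rose and 4 fell. Ahcy, which hydrolyses adenosylhomocysteine, rose 1.27-fold, and Mtr, the folate-dependent methionine synthase, rose 1.25-fold (limma adjusted p = 0.0117, and 0.114 after scaling). Cth, which makes cysteine, fell 1.81-fold, and Mat2b, a subunit of methionine adenosyltransferase, fell 1.19-fold. Of 11 genes that use serine for lipids or break it down 4 rose and 1 fell, and the 1 that fell, Sptlc3 of sphingolipid synthesis, was 5.73-fold lower with 611. Sptlc2, of the same enzyme family, rose 1.23-fold and Serinc5 rose 1.25-fold, while Ptdss1, of phosphatidylserine synthesis, was 1.11-fold higher (limma adjusted p = 0.0470, and log2 fold change -0.01 after scaling). The 4 higher calls of this list became 2 without 611 replicate 3, without DMSO replicate 1, with no trend in the prior variance and after scaling, where 4 fell.

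**Figure D5:**
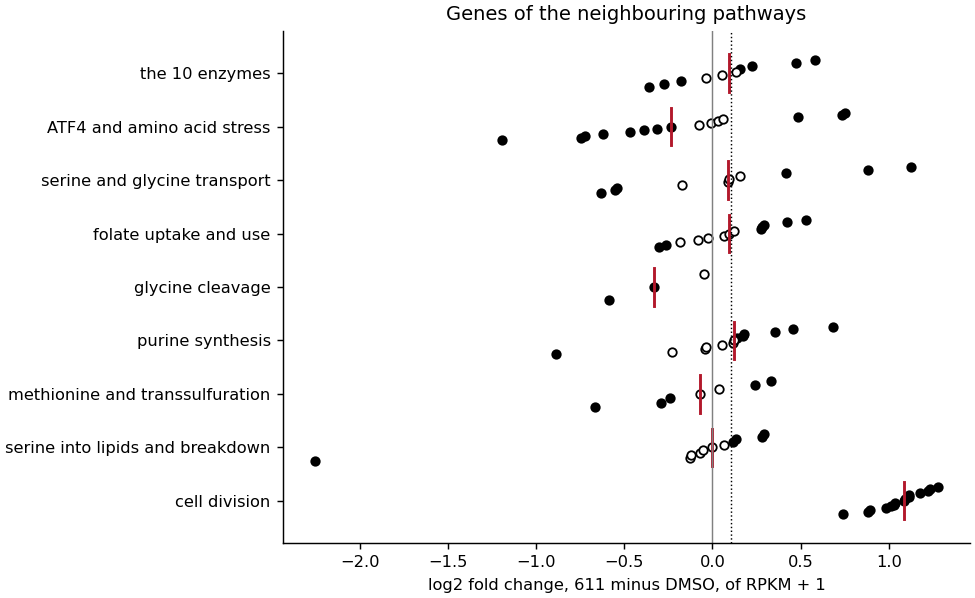
Log2 fold change of each tested gene, 611 minus DMSO, on the log2(RPKM + 1) scale (x axis), for the 10 enzymes and 8 lists of neighbouring genes down the page. Filled dots passed adjusted p 0.05, red bars are list medians, the dotted line is the median of all genes at 0.10. The 10 enzymes spread on both sides of it, most called genes of the ATF4 list lie left of it, and all 15 cell division genes lie right of it.

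The same libraries differed in the markers of fat cells and of dividing cells, beside which the values above stand. All 15 genes of the cell division list rose, Mki67 2.49-fold, Top2a 2.51-fold and Mcm3 2.60-fold, with a summed level of 327 to 368 RPKM in 611 libraries, against 156 to 166 RPKM in DMSO libraries. All 8 general fat cell markers fell, with sums of 12477 to 13876 RPKM with 611, against 23818 to 25160 RPKM with DMSO. By gene the falls ran from 1.17-fold (Cebpa) to 3.13-fold (Cfd). Of 8 brown fat markers 6 could be tested and 5 fell, with sums of 83.5 to 102 RPKM with 611, against 224 to 268 RPKM with DMSO, and Ucp1, the defining one, was listed at 0 in all 6 libraries. All 8 progenitor markers rose, with sums of 1714 to 1877 RPKM with 611, against 781 to 854 RPKM with DMSO. Of 5 smooth muscle markers 2 of 4 tested rose and 0 fell, with sums of 67.1 to 76.3 RPKM with 611, against 31.3 to 32.7 RPKM with DMSO. Only 2 of 5 osteoblast markers passed the filter, 1 of them higher and 1 lower, with sums of 5.48 to 5.98 RPKM with 611, against 3.22 to 3.56 RPKM with DMSO. After scaling 2 smooth muscle markers rose and 1 fell, and the called counts of the other lists of this paragraph stayed the same. Of all genes tested 41.6% were called higher and 17.7% lower without scaling. Most of each marker sum came from 1 gene, in the order given Fabp4, Elovl3, Vim, Acta2 and Runx2. The part of these differences in those of the 10 enzymes was not tested. Kdm1a, the gene of LSD1, was at 11.3 ± 0.331 RPKM with 611 and 9.09 ± 0.331 RPKM with DMSO (SD, n = 3 each, limma adjusted p = 7.4e-04), and a transcript level does not check an inhibitor of its protein.

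Among 7920 genes with a mean of at least 5 RPKM, those whose log2(RPKM + 1) followed Phgdh most closely over the 6 libraries were Prep, Pcmt1 and Nop9, with Pearson correlations of 0.999, 0.997 and 0.995. Those closest to Mthfd2 were Mrpl18, Etnk1 and Smim10l1, at 0.993, 0.991 and 0.990. The 6 libraries fall into 2 groups and share the replicate numbers, so these values describe a likeness in 2 differences and no more.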

How the data were processed

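The submitters' processing notes name the genome build mm9, TopHat2 version 2.0.12, TopHat and SAMtools. For every library the authors deposited RPKM of 28430 RefSeq transcripts. The program that computed RPKM, and any use of strand, were not given in the sources used here. Symbols came from RefSeq's table for GRCm38.p6 (27789 accessions matched), used with no coordinates other than those of the promoter windows. Library totals were estimated as those that put the largest share of low RPKM values within 0.01 reads of a whole read. They came to 3.88e+07 to 4.12e+07 reads or read pairs. At these totals that share was 45.2% to 47.1%, against 2% for evenly spread values at a total fixed beforehand, so part of the excess comes from the choice of total. Intervals from reads cover counting error only.

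The transcript with the highest mean stood for its gene, since isoforms share reads. Genes with at least 0.1 RPKM in at least 3 libraries (13829) were fitted with limma 3.58.1 with trend, on log2(RPKM + 1), with group as the only term. P-values were adjusted by Benjamini-Hochberg over all genes, with 95% intervals. Alternatives were another pseudocount, filter, scaling, transcript rule and prior, a replicate block and leaving out libraries. Libraries with the same number correlated in their deviations at 0.30, 0.30 and 0.18. The numbers come from the sample titles, which do not say that equal numbers were paired. The main fit and the permutation tests treat the libraries as unpaired.

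The 10 members and the lists were chosen with earlier results of these data known. Beside the 10 genes, the text names, of every pathway list, at most 3 called genes per direction (largest log2 fold changes, the higher group averaging 1 RPKM or more), Aldh1l2, Tyms, Atf4, Gldc and Kdm1a whatever their values, and the 3 genes most correlated with Phgdh and with Mthfd2. Genes whose exons overlap a member's were named for that reason. Those exons were GENCODE's, pooled over all transcripts of a gene, and can lie outside the transcript used here. Some genes that the rule names are not reported here.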

Additional observations from a re-analysis of the deposited data

How the results depend on the processing

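Phgdh, Psph, Mthfd2 and Mthfd1l kept direction and call in all 15 alternatives, and Aldh1l1 in the 14 in which it was tested. The filter, the block and the prior leave a fold change as it is, so there only the call could change. The same holds for the transcript rule in genes with no other transcript. Counts of called members were 3 to 5 higher and 3 lower when each library was left out in turn, and counts of all genes were 5127 to 5532 higher and 2167 to 2329 lower. Median-of-ratios scaling left 2 members higher, ended the calls of Mthfd1 and Shmt2, and gave 3940 genes higher and 3961 lower, against 5758 and 2451 without it. It turned the log2 fold changes of Psat1 to -0.013 and of Mthfd2l to -0.065, neither called. Shmt1, not called either, ranged from -0.103 to 0.0337 with each library left out in turn, above 0 without 611 replicate 2 and without DMSO replicate 3 (0.0150). Psat1 passed without 611 replicate 2 (limma adjusted p = 0.0207). With the replicate block 5 members were higher and 3 lower (Psat1 added), and 6169 genes were higher and 2700 lower. The block changed no other member's call. Ratios kept their direction in all alternatives run for them, though the block, and the transcript rule in genes with no other transcript, could not change it. The limits are the 3 libraries per group, the reads of Aldh1l1, and the unknown sharing of reads with pseudogenes, overlapping genes and isoforms.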
